A study of Mus musculus with 4 samples.

Results

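The genes described here are those of the machinery that decides on and carries out programmed cell death: the Bcl2 family, the caspases, the inhibitor of apoptosis (IAP) genes, the factors released from mitochondria, Apaf1 and Trp53. They were chosen by symbol alone, and 41 of the 27189 genes in the expression tables matched, each with 1 entry. No row carried the symbols Bik or Xiap, so these genes were not analyzed here.

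Apoptosis of neurons runs mainly through mitochondria. Pro-survival proteins such as Bcl-2, Bcl-xL (the product of Bcl2l1), Bcl-w (Bcl2l2) and Mcl-1 hold the effectors Bax and Bak in check, and BH3-only proteins relieve that restraint. Open mitochondria release cytochrome c, which assembles Apaf-1 and procaspase-9 into the apoptosome, and caspase-9 then activates further caspases, while IAP proteins oppose caspases and Smac (Diablo) opposes IAPs.

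Levels, given throughout for replicate 1 and then replicate 2 of a genotype, were compared between motor neurons of G85R SOD1-YFP mice (strain 737) and of wild-type SOD1-YFP mice (strain 592, the controls), 2 animals each with 1 library per animal, at 3 months of age and on the same C57BL/6J x SJL/J background. Both strains carry a genomic fragment with the human SOD1 gene, driven by its own promoter and joined to YFP, so that the controls also expressed a human SOD1 fusion. The G85R strain carries far more copies of the transgene than the wild-type strain, and mutation, copy number, insertion site and strain cannot be told apart here. Between 3000 and 4000 large ventral horn cell bodies per animal were cut from 20 micron sections stained with Azure B, and the study excluded the darkly stained cells with large aggregates from G85R samples.

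Values are RPKM, reads scaled by transcript length and by the mapped reads of the library, which can be compared between genes. Reads behind each gene were estimated from the RPKM that 1 read adds (median over genes of 0.0195 to 0.0226 in the 4 libraries), and summed to between 21560318 and 25186594 per library. Markers of motor neurons were high, with a sum over 6 genes of 1370 and 1642 in the controls against 1191 and 1452 in G85R. Chat, Mnx1 and Prph lay lower in both G85R libraries, while the genotypes overlapped in Slc18a3, Isl1 and Slc5a7. Of the genes tested below, 23.9% lay lower in both G85R libraries. The 5 astrocyte markers summed to 32.5 and 36.1 in the controls but to 120.7 and 47.8 in G85R. Gfap alone gave 91.9 in G85R replicate 1. The 9 microglial markers summed to 16.3 and 17.7 in the controls against 36.1 and 18.7 in G85R. The genotypes overlapped in Aldh1l1, Aqp4 and Gja1, and in Aif1, Csf1r, Cx3cr1, P2ry12 and Tmem119. Each astrocyte and microglial marker was highest in G85R replicate 1. The oligodendrocyte markers summed to 860 and 807 in the controls against 1027 and 786 in G85R. Endothelial markers summed to between 7.24 and 9.57. The 2 red blood cell markers that were found summed to 1.82 and 2.10 in the controls against 11.4 and 10.8 in G85R. None of these markers was at 0 in all 4 libraries, and the part of other cells in the results that follow was not tested. In bulk RNA of this kind, fewer cells of a type and less RNA per cell cannot be told apart.

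Of the 41 genes, 33 had an RPKM above 0 in all 4 libraries, 3 in only some of them and 5 in none. A minimum mean RPKM of 1 was set for testing and reached by 21 genes, of which 9 were at 10 or more, and these 21 genes had a median of 8.52, compared with 10.1 for all 11530 genes past that minimum. The 5 most abundant were Bcl2l2, Endog, Bcl2l1, Bax and Aifm1, each with a mean RPKM above that of at least 91.3% of all entries, and together they held 55.4% of the summed RPKM of the 41 genes. Of the 20 steps between neighbors in the order of the 21 levels, 5 separated genes whose ranges over the 4 libraries did not overlap: Bcl2l2 from Endog, Bad from Mcl1, Birc6 from Birc2, Birc2 from Trp53, and Bak1 from Birc5. In the other 15 steps the ranges of both neighbors overlapped.

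**Figure D1:**
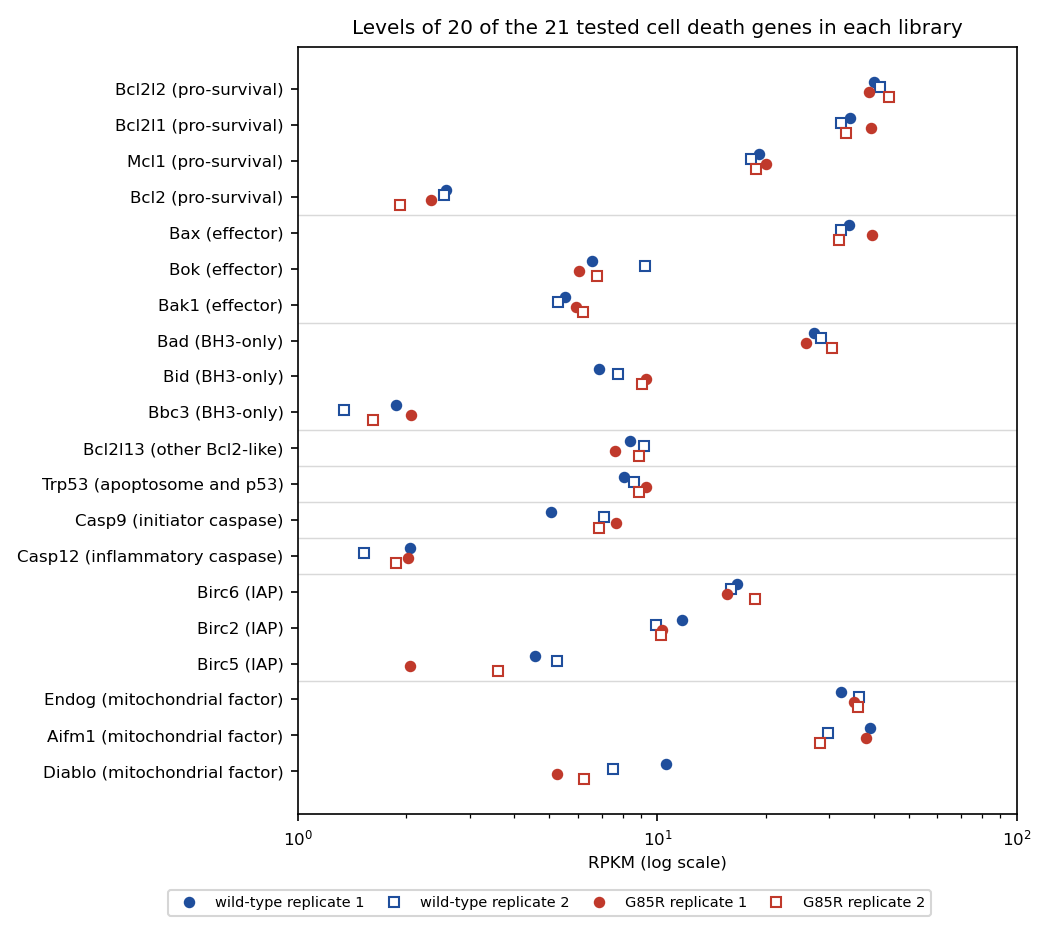
RPKM (log scale) of 20 of the 21 tested cell death genes in each of the 4 libraries, grouped by role, with wild-type in blue, G85R in red, replicate 1 as filled circles and replicate 2 as open squares. Bcl2l2, Endog, Bcl2l1, Bax and Aifm1 lie between 28.3 and 44.0 in all libraries, and Birc5 has the largest genotype difference.

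None of these genes differed between G85R and wild-type motor neurons at an adjusted p under 0.05 in a fit without replicate pairing. With a replicate block, Birc5 was called (adjusted p = 0.0238 from limma), beside 4.57% of all tested genes. The genotypes were compared with limma, a moderated linear model, on log2(RPKM + 0.1) over the 11530 genes past the minimum, with Benjamini-Hochberg adjustment over all of them. On this scale the change of low genes is understated. Of the 21 tested cell death genes 0 were called, beside 0.642% of all tested genes (0.269% higher and 0.373% lower in G85R). An unadjusted p under 0.05 was found for 3 of them (14.3%), beside 11.0% of all tested genes. Of these 3, Bid was higher in G85R, beside 4.66% of all tested genes, and Diablo and Birc5 were lower, beside 6.37%. The smallest adjusted p was 0.288 (limma). The log-linear likelihood ratio test of the study was run on all 41 genes. It called 0 and gave 0 with a raw p under 0.05, beside 0.228% of all 27189 genes called and 1.29% at that raw p. This test takes rounded RPKM as counts. Diablo, with an estimated 313 to 691 reads, thus entered at an RPKM of 5.25 to 10.6. Moderate differences at such levels can hardly reach a low p, so this result adds nothing to that of limma.

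The median log2 difference, G85R minus wild-type, was 0.06 over the 21 genes and -0.02 over all tested genes, with 13 of the 21 genes higher in G85R, beside 45.3% of all tested genes, and 8 lower. The genotypes did not overlap in 6 of the 21 genes (28.6%), beside 41.2% of all tested genes. These were Bid, Bak1 and Trp53 above the controls, beside 17.3% of all tested genes, and Diablo, Birc5 and Bcl2 below them, beside 23.9%. The genotype difference exceeded the difference between replicates of either genotype in 5 genes (23.8%), compared with 29.1% of all tested genes. With 2 libraries against 2 an exact two-sided permutation test of 1 gene cannot fall below 0.33. The 95% interval, not adjusted for the number of genes, lay within a 2-fold change in either direction for 19 of the 21 genes. The exceptions were Diablo and Birc5.

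**Figure D2:**
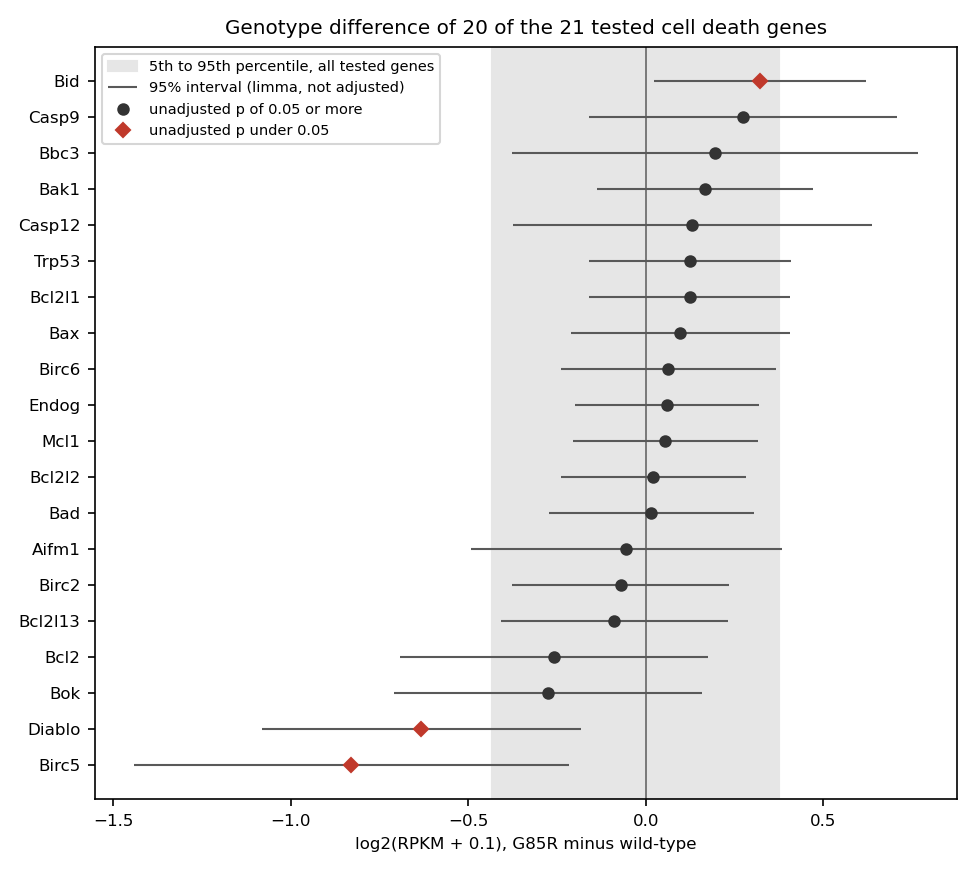
Difference in log2(RPKM + 0.1) between G85R and wild-type for 20 of the 21 tested cell death genes, with 95% intervals from limma as horizontal lines, and red diamonds for an unadjusted p under 0.05. The gray band spans the 5th to 95th percentile over all tested genes, -0.43 to 0.38, and only Diablo and Birc5 have their point outside it.

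Among the pro-survival genes, Bcl2l2 was the most abundant, with an RPKM of 40.0 and 41.6 in the controls against 38.9 and 44.0 in G85R. Bcl2l1 had 34.3 and 32.4 in the controls against 39.4 and 33.5 in G85R. Mcl1, whose protein is short-lived, had 19.2 and 18.2 in the controls against 20.1 and 18.8 in G85R. In all 3 genes the genotypes overlapped, with log2 differences of 0.02 (standard error, SE, 0.11), 0.12 (0.12) and 0.06 (0.11). Bcl2, the founding member of the family, stood far below them, at 2.58 and 2.54 in the controls against 2.35 and 1.92 in G85R. Both G85R values of Bcl2 were the lower, but by a log2 difference of -0.26 (SE 0.18; limma, adjusted p = 0.693), with an interval of -0.69 to 0.17. Bcl2l2 contributed 38.6% to 44.8% of the summed RPKM of the 9 pro-survival genes and Bcl2 no more than 2.68%.

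The remaining pro-survival genes were at or near 0. Bcl2l10 was above 0 only in wild-type replicate 2 and Bcl2a1a only in G85R replicate 1, each from an estimated 1 read. Bcl2a1b, Bcl2a1c and Bcl2a1d, close copies of Bcl2a1a known from blood cells, were listed at 0 in all 4 libraries. Reads that match several of these copies may have been shared out or dropped. The single value of Bcl2a1a and the zeros of its copies are thus uncertain.

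Of the effectors, which form the pores in the outer mitochondrial membrane, Bax had an RPKM of 34.1 and 32.4 in the controls against 39.5 and 32.0 in G85R. G85R replicate 1, the library with the most astrocyte, microglial and oligodendrocyte marker RNA, gave the highest value of both Bax and Bcl2l1. That library gave the lowest value of Bcl2l2, Bad and Birc6. The part of other cells in these levels was not tested. Without G85R replicate 1 the log2 difference of Bax, 0.10 (SE 0.13), became -0.05, and that of Bcl2l1, 0.12, became 0.01. Without G85R replicate 2 they became 0.25 and 0.24. Bak1 had 5.54 and 5.28 in the controls against 5.95 and 6.22 in G85R, so that both G85R values were higher, by a log2 difference of 0.17 (SE 0.13; limma, adjusted p = 0.717). Bok, a relative of Bax and Bak, had 6.57 and 9.24 in the controls against 6.07 and 6.80 in G85R, where the value of wild-type replicate 2 stood apart. Its log2 difference was -0.28 (SE 0.18) with all libraries and -0.03 without wild-type replicate 2. Bax held 69.0% to 76.7% of the summed RPKM of the effectors.

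The balance between guardians and effectors did not separate the genotypes. The summed RPKM of the pro-survival genes was 96.1 and 94.8 in the controls against 100.9 and 98.3 in G85R, and that of the effectors 46.2 and 46.9 in the controls against 51.5 and 45.0 in G85R. The ratio of these sums was 2.08 and 2.02 in the controls against 1.96 and 2.18 in G85R, so that the G85R libraries enclosed the wild-type ones. Bcl2l1 and Bax were nearly equal in every library, with a ratio of 1.01 and 1.00 in the controls against 1.00 and 1.05 in G85R. The ratio of Bcl2 to Bax was 0.0756 and 0.0786 in the controls against 0.0595 and 0.0599 in G85R. The Bcl2 to Bax ratio was thus lower in both G85R libraries. In the other ratios of single genes to Bax the genotypes overlapped. That of Bcl2l2 was 1.173 and 1.285 in the controls against 0.986 and 1.376 in G85R. That of Mcl1 was 0.564 and 0.562 in the controls against 0.509 and 0.587 in G85R. The ratios of single genes were formed after the values had been seen and were not tested.

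**Figure D3:**
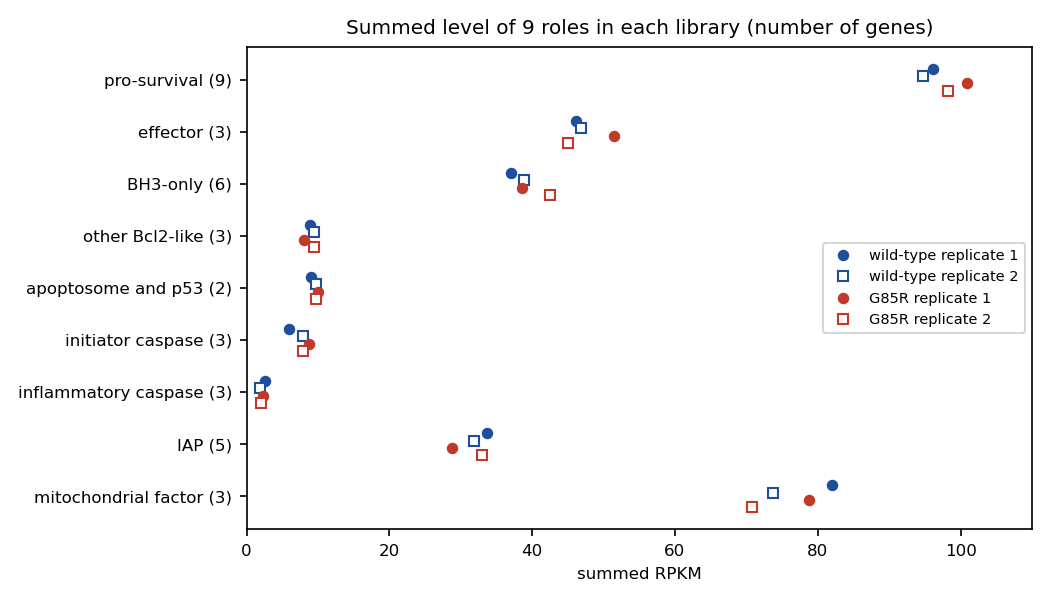
Summed RPKM of the genes of 9 roles in each of the 4 libraries, wild-type in blue and G85R in red, with the number of genes of a role in parentheses. The pro-survival sums, between 94.8 and 100.9, are 1.96 to 2.18 times the effector sums, and the caspase sums shown are the lowest together with those of the other Bcl2-like genes and of Apaf1 with Trp53.

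Among the BH3-only genes, Bad, whose protein is held inactive by phosphorylation downstream of growth factors, was the most abundant, with 27.2 and 28.5 in the controls against 25.9 and 30.7 in G85R and a log2 difference of 0.02 (SE 0.12). It held 67.0% to 73.6% of the summed RPKM of the 6 genes of this role. Bid, which links caspase-8 to mitochondria once it is cleaved, had 6.89 and 7.76 in the controls against 9.31 and 9.04 in G85R. Both G85R values of Bid were higher, with a mean of 9.18 ± 0.187 compared with 7.33 ± 0.615 (SD, n = 2 libraries each). The log2 difference of Bid was 0.32 (SE 0.13), a 1.25-fold higher level with an interval of 1.02- to 1.54-fold, and the adjusted p was 0.419 (limma; unadjusted, 0.0378). It ranged from 0.24 to 0.41 when 1 library was left out.

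Bid is a minus-strand gene of chromosome 6 that runs from 120841948 to 120866871 (NCBIM37, the assembly that UCSC names mm9), and its exons overlap exons of Bcl2l13 on the other strand. The sources used here do not state that the counting used strand, and reads of both genes in the overlap cannot be told apart. Exons on the other strand overlap those of 9 of the 21 tested genes, and Bcl2l2 shares exon sequence with Gm20521 on its own strand, where strand would not separate the reads. Bcl2l13, a divergent member of the family in the mitochondrial outer membrane, had 8.40 and 9.15 in the controls against 7.62 and 8.90 in G85R, and its log2 difference of -0.09 (SE 0.13) had the opposite sign.

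Bbc3, or Puma, a target of p53, had 1.87 and 1.34 in the controls against 2.07 and 1.62 in G85R, with a log2 difference of 0.19 (SE 0.24). The other BH3-only genes were under the minimum. Bcl2l11, or Bim, had 0.560 and 0.674 in the controls against 0.685 and 0.678 in G85R, where both values were higher, by a log2 difference of 0.13 (SE 0.25) with a minimum of 0.1. Hrk, known from neurons deprived of trophic factors, lay between 0.344 and 0.537, and Bmf between 0.0852 and 0.132. Of the other Bcl2-like genes, Bcl2l12 lay between 0.312 and 0.598, and Bcl2l14 was above 0 in both libraries of replicate number 2 only, from an estimated 0.955 reads each.

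**Figure D4:**
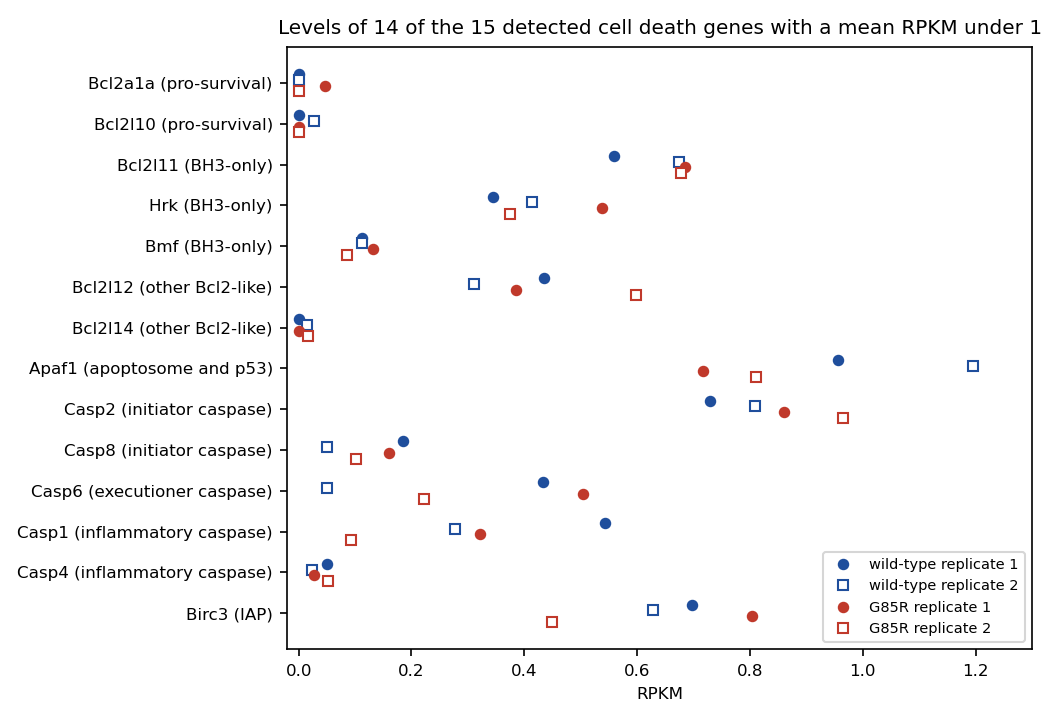
RPKM of 14 of the 15 cell death genes with a mean above 0 and under 1 in each of the 4 libraries, wild-type in blue and G85R in red. Apaf1 is the highest of them and has both G85R points left of both wild-type points, while Casp6, Casp8 and Casp1 scatter several-fold between libraries of the same genotype.

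Apaf1, the scaffold of the apoptosome, had an RPKM of 0.955 and 1.19 in the controls against 0.716 and 0.811 in G85R, from an estimated 85.6 to 166 reads. Its mean of 0.919 fell just short of the minimum. With a minimum of 0.1 its log2 difference was -0.44 (SE 0.24; limma, adjusted p = 0.578), and both G85R values were below both wild-type values. Casp9, the initiator that Apaf-1 activates, was the most abundant caspase, with 5.05 and 7.11 in the controls against 7.67 and 6.89 in G85R. Wild-type replicate 1 was the low value, and the genotypes otherwise overlapped, with a log2 difference of 0.27 (SE 0.18; limma, adjusted p = 0.674), or 0.03 without that library. Casp9 made up 84.7% to 89.2% of the summed RPKM of the initiators.

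Casp2, an initiator activated by stress in the nucleus, had 0.729 and 0.809 in the controls against 0.860 and 0.966 in G85R, both G85R values being higher. With a minimum of 0.1 its log2 difference was 0.22 (SE 0.23; limma, adjusted p = 0.818). Casp8, the initiator of death receptors, was lower still, at 0.184 and 0.0498 in the controls against 0.159 and 0.102 in G85R, from an estimated 3.86 to 13.5 reads.

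Casp6, which is known for its part in axon degeneration, had 0.433 and 0.0509 in the controls against 0.503 and 0.223 in G85R. These values of Casp6 rest on an estimated 2.00 to 17.0 reads, and the replicates of wild-type differed more than the genotypes.

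Of the inflammatory caspases, Casp12, which is associated with the endoplasmic reticulum, had 2.04 and 1.52 in the controls against 2.02 and 1.87 in G85R and a log2 difference of 0.13 (SE 0.21). Casp1, the enzyme that matures interleukin-1β, had 0.543 and 0.277 in the controls against 0.322 and 0.0932 in G85R, from an estimated 24.0 and 13.0 reads in the controls against 13.0 and 4.0 in G85R. The genotypes overlapped. Casp4 lay between 0.0240 and 0.0525. Casp14, an enzyme of the skin, and Birc7, an IAP gene, were listed at 0 in all 4 libraries. For the 5 genes at 0, 1 read would be worth an RPKM of 0.0141 to 0.0843, which is the resolution of these libraries. For the Bcl2a1 copies among them this is not a limit of detection, since reads that match several copies may have been dropped.

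In the IAP genes the largest difference of all tested cell death genes was found. Birc5 (Entrez Gene 11799), or survivin, a protein of the dividing cell that also blocks apoptosis, lies on the plus strand of chromosome 11 from 117710565 to 117717069. It had an RPKM of 4.57 and 5.27 in the controls against 2.05 and 3.59 in G85R, from an estimated 202 and 248 reads in the controls against 82.9 and 154 in G85R. Both G85R values were lower, with means of 2.82 ± 1.09 compared with 4.92 ± 0.488 (SD, n = 2 libraries each), a log2 difference of -0.83 (SE 0.26; limma, adjusted p = 0.307; unadjusted, 0.0151). This is a 1.78-fold lower level, and the interval of the log2 difference was -1.44 to -0.22. G85R replicate 1 gave the lowest value: without that library the log2 difference was -0.44, and without G85R replicate 2, where G85R replicate 1 alone stands for the mutant, it was -1.22 with an adjusted p of 0.0153 from limma. G85R replicate 1 was also the library with the highest astrocyte, microglial and oligodendrocyte sums and the lowest motor neuron sum. The astrocyte sum was 120.7, of which Gfap gave 91.9, the microglial sum 36.1, the oligodendrocyte sum 1027 and the motor neuron sum 1191. The part of other cells in the level of Birc5 was not tested.

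The other IAP genes were nearer to equal. Birc6, a large ubiquitin-conjugating IAP, had 16.6 and 16.0 in the controls against 15.6 and 18.7 in G85R, with a log2 difference of 0.06 (SE 0.13). Birc2, or cIAP1, a ubiquitin ligase of TNF receptor signaling, had 11.7 and 9.93 in the controls against 10.3 and 10.2 in G85R, with a log2 difference of -0.07 (SE 0.13). Birc3, its neighbor on chromosome 9, lay between 0.450 and 0.804. Birc6 made up 49.5% to 56.7% of the summed RPKM of the 5 IAP genes.

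Of the mitochondrial factors, Diablo (Entrez Gene 66593), which encodes the IAP antagonist Smac, had the smallest p of all tested cell death genes. It had an RPKM of 10.6 and 7.52 in the controls against 5.25 and 6.23 in G85R, from an estimated 691 and 521 reads in the controls against 313 and 394 in G85R. Both G85R values were lower, with means of 5.74 ± 0.693 compared with 9.05 ± 2.18 (SD, n = 2 libraries each). The log2 difference of -0.63 (SE 0.19; limma, adjusted p = 0.288; unadjusted, 0.0127) is a 1.55-fold lower level, with an interval of -1.08 to -0.18. Wild-type replicate 1 held much of it, and the log2 difference was -0.39 without that library, -0.88 without wild-type replicate 2 and -0.51 without G85R replicate 1. By unadjusted p, Diablo ranked 507 among all tested genes and Birc5 567. Diablo is a minus-strand gene of chromosome 5 that runs from 123959774 to 123974185, and its exons overlap those of B3gnt4 and Gm15751 on the other strand, so that its reads cannot be told apart from theirs in the overlap. Birc5 had no such overlap.

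**Figure D5:**
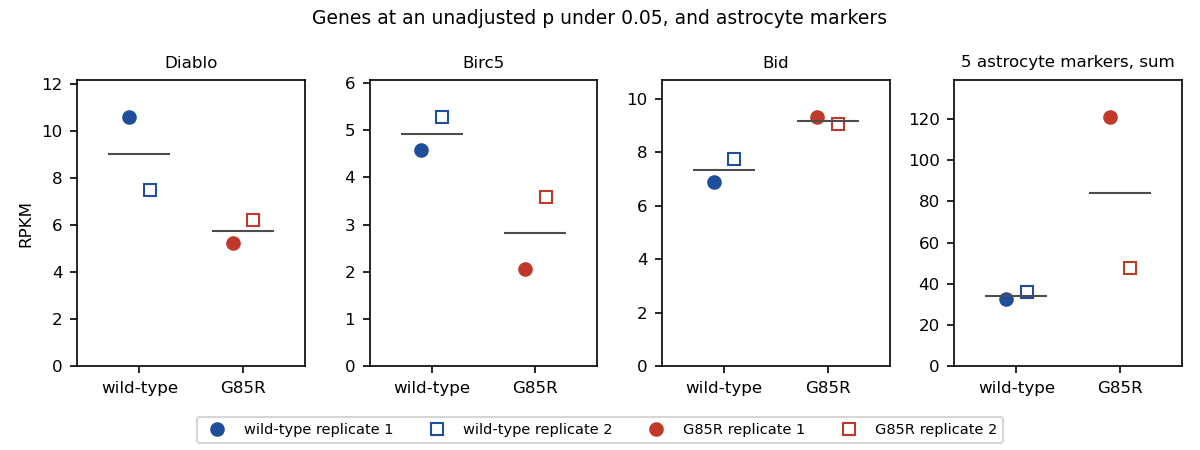
RPKM of Diablo, Birc5 and Bid and the summed RPKM of 5 astrocyte markers in each library (points, replicate 1 filled, replicate 2 open), with the mean of each genotype as a line. Diablo and Birc5 are lower and Bid is higher in both G85R libraries, and the astrocyte markers are highest in G85R replicate 1, the library with the lowest Diablo and Birc5.

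Endog, a mitochondrial nuclease, and Aifm1, a flavoprotein of the respiratory chain that moves to the nucleus in dying cells, were among the most abundant genes. Endog had 32.3 and 36.4 in the controls against 35.3 and 36.2 in G85R, with a log2 difference of 0.06 (SE 0.11, interval -0.20 to 0.32). Aifm1, on the X chromosome, had 39.1 and 29.8 in the controls against 38.2 and 28.3 in G85R. Its values were thus high in the first and low in the second replicate of either genotype, with a log2 difference of -0.05 (SE 0.19) between genotypes. Trp53, the transcription factor p53, had 8.06 and 8.60 in the controls against 9.31 and 8.87 in G85R. Both G85R values of Trp53 were higher, by a log2 difference of 0.12 (SE 0.12, interval -0.16 to 0.41, adjusted p = 0.798 from limma).

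Genes that act around these members were read from the same fit, from 6 lists with 84 symbols, of which 80 had a row and 53 passed the minimum. Of these 53 genes 0 were called, and 8 had an unadjusted p under 0.05 (15.1%, beside 11.0% of all tested genes), 3 higher and 5 lower in G85R. The 14 tested genes of the p53 network included 4 of these, with a median log2 difference of 0.11. In this list 10 genes were higher, beside 45.3% of all tested genes, and 4 lower. The genotypes did not overlap in 6 of the 14 (42.9%), beside 41.2% of all tested genes. Perp, a membrane protein induced by p53, Gadd45g, a growth arrest gene, and Ccng1, a cyclin induced by p53, had log2 differences of 0.45, 0.53 and 0.36, and Atr, a kinase that senses damaged DNA, had -0.78. Their adjusted p lay between 0.130 and 0.404 (limma). Mdm2, Cdkn1a and Zmat3, of the same list, had log2 differences of 0.09, 0.02 and -0.004, and the genotypes overlapped. Gadd45a, at 0.19, was higher and Ppm1d, at -0.36, was lower in both G85R libraries. Mdm2, Cdkn1a, Zmat3, Gadd45a and Ppm1d were named after their values were seen.

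Among 6 tested genes of death receptors and their adaptors, with a median of -0.02, the TNF receptor Tnfrsf1a had a log2 difference of -0.67 (SE 0.26; limma, adjusted p = 0.417). The 14 tested mitochondrial and nuclear executors outside the rule had a median of 0.01, and Dffa, the inhibitor of the DNase of apoptosis, had -0.34 (adjusted p = 0.398 from limma). The 10 genes of JNK and stress signaling had a median of -0.07, with Jun at -0.36, and the 8 calpain genes also had a median of -0.07, with the calpain inhibitor Cast at -0.36. Jun and Cast had adjusted p of 0.403 and 0.302 (limma). Of the inflammasome genes only Il18, named after its value was seen, was tested, with a log2 difference of -0.37 and an adjusted p of 0.539 (limma).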

How the data were processed

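Motor neuron RNA of 2 wild-type and 2 G85R SOD1-YFP mice was sequenced with 75 bp single-end reads. The authors mapped them with Bowtie 0.12.3 onto mm9 plus splice junctions, and Cufflinks gave levels of UCSC gene clusters. The deposited values are RPKM, and a second deposited RPKM has 1 read added to every gene; the difference gave the RPKM of 1 read. Cufflinks shares reads out between isoforms, so that estimated reads are not counts and carry no counting interval.

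For the genotype contrast, limma 3.58.1 (R 4.3.3, eBayes with a trend) was fitted without a block to log2(RPKM + 0.1) of the genes whose RPKM averaged 1 or more, with Benjamini-Hochberg adjustment over those genes and calls under 0.05. The study's log-linear likelihood ratio test was a Poisson model of the rounded RPKM with 1 read added. Both tests were run on data simulated under their own assumptions, which does not show how they behave on these data. Positions come from a GENCODE annotation of NCBIM37, in which all 41 symbols were found. Python 3.11.15, pandas 2.3.3 and matplotlib 3.10.9 were used.

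The members and lists were chosen with earlier results of these data known. Results for 2 members are not reported here. Values were given for members called or at an unadjusted p under 0.05, the 5 most abundant, the 4 largest differences each way and a set of core genes; Bcl2l13, Casp12 and members under the minimum were added after their values were seen. Alternatives were other pseudocounts, scalings, minima, eBayes settings and thresholds, a replicate block, and leaving out each library. Each library is 1 animal. The limma p-values set the genotype difference against a spread between animals that is moderated over all tested genes. Those of the log-linear test hold no spread between animals.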

Additional observations from a re-analysis of the deposited data

How the results depend on the processing

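With all 4 libraries kept, 143 of 144 values of the 18 named genes kept their sign and their side of the threshold over pseudocounts, scalings, eBayes settings, the threshold of 0.1 and the replicate block. The exception was Birc5, at -0.83 and called with the replicate block (adjusted p = 0.0238 from limma). Diablo had an adjusted p of 0.0586 (limma) with that block. Only the pseudocounts and scalings change the log2 difference, so that no sign could change under the other settings. The labels of same-numbered samples share only a number. The study plots ratios of G85R to wild-type by pairs of replicates, without saying what a pair shares. Deviations of same-numbered libraries had an r of 0.22 over tested genes. Of the tested cell death genes 61.9%, compared with 36.6% of all, had both replicates 1 on one side of both replicates 2. Whether the animals were paired cannot be told from these values. With the replicate block limma called 527 genes (4.57%), 1 cell death gene and 4 genes of the surrounding lists, against 74, 0 and 0. All genes called numbered 39 after quantile normalization, 17 with a minimum RPKM of 5, 112 without a filter, 49 without the intensity trend and 142 at an adjusted p under 0.1; in each of these 0 cell death genes were called. Without a filter Il1b, a cytokine gene of the inflammasome list, was the 1 surrounding gene called, at a log2 difference of 0.35 (SE 0.008). Il1b did not reach the minimum mean RPKM of 1, and its call rests on a very small spread between low values. Non-overlapping cell death genes numbered 10 of 32 with a minimum of 0.1 (31.3%, beside 41.2% of all genes) and 10 of 41 without a filter (24.4%, beside 26.5%). The log-linear test, which takes rounded RPKM as counts and has little power at low RPKM, gave 0 with a raw p under 0.05, compared with 3.

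With 1 library left out, the lone library of a genotype is assumed to vary like the others. Called genes then numbered 78 to 188, cell death genes called 0 to 1 (Birc5, without G85R replicate 2), those at an unadjusted p under 0.05 1 to 4, and surrounding genes called 0 to 1 (Atr, without G85R replicate 2). The log2 difference then changed sign in genes between -0.09 and 0.19 with all libraries: it ranged from -0.27 to 0.16 for Aifm1, -0.11 to 0.14 for Bad, -0.0673 to 0.11 for Bcl2l2, -0.19 to 0.047 for Birc2, -0.20 to 0.02 for Bcl2l13, -0.07 to 0.33 for Casp12, -0.0254 to 0.14 for Endog, -0.0311 to 0.42 for Bbc3, -0.0534 to 0.25 for Bax and -0.0663 to 0.19 for Birc6. The log2 ratio of pro-survival to effector sums differed by 0.01 between genotypes, and by -0.07 to 0.09 with 1 library left out. Depth limits the genes under the minimum, such as Casp6 and Casp8 at an estimated 17.0 reads or fewer in every library.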
